A study of Nematostella vectensis with 16 samples.

Results

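Mercury was compared directly with zinc in Nematostella vectensis, the starlet sea anemone, a burrowing cnidarian of brackish lagoons that is widely studied in the laboratory. The comparison sets the 3 Hg pools against the 3 Zn pools, 6 of the 16 libraries of the study, chosen by their labels as the metals with the largest and the smallest response in earlier results of these data. Each metal pool held 5 anemones kept for 24 h in artificial seawater with the metal chloride at 100 µg/L, HgCl2 for the Hg pools and ZnCl2 for the Zn pools. Whether the concentration refers to the metal or to the salt is not stated. The other libraries came from 3 Cu pools (CuCl2) and 3 Cd pools (CdCl2) treated in the same way, and from 4 untreated control pools. All animals were 2 to 4 months old and were raised at 18 °C and a salinity of 12.5 ppt in the dark. No control library enters the difference between Hg and Zn. The 4 deposited count tables, joined on the gene identifier, hold 27273 gene models, of which 16276 passed a filter on low counts and were tested. Pools are separate groups of animals, so p-values set a difference against the spread between pools. In the tests of single genes this spread was estimated from all 16 libraries, not from the Hg and Zn pools alone.

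Mercury is a metal with no known biological role, and its ions bind tightly to the thiol groups of proteins and of glutathione. Zinc is an essential metal that holds many enzymes and transcription factors in shape, and animal cells keep its free level low with transporters and metal-binding proteins. In animals, excess metal is known to induce metallothioneins, heat shock proteins and enzymes of glutathione synthesis. The deposited identifiers are gene model numbers that the tables do not pair with names. When looked up among the 38762 RefSeq genes of jaNemVect1.1, 0 of them matched. No gene is therefore described by function here, cell type markers could not be read, and few genes are named.

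The 6 libraries held between 5494659 and 8113825 counts in the Hg pools and between 6250774 and 7955616 in the Zn pools. Levels are given as CPM, a gene's counts scaled to the size of its library, and 1 CPM was about 5 to 8 counts. Thinned to the smallest library total, the Hg pools detected 19820 ± 111 gene models and the Zn pools 19910 ± 101 (SD, n = 3 each; two-sided exact permutation test p = 0.4, where 0.1 is the smallest possible). Within a group, log2 CPM correlated across genes at 0.966 to 0.974 between Hg pools and 0.971 to 0.977 between Zn pools, and at 0.928 to 0.947 between Hg and Zn pools. Chi-square tests of the counts over genes gave 6.33 to 11.5 per degree of freedom between pools of a group, far above counting error, so no library was a copy of another.

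Between Hg and Zn 4313 genes were called, 26.5% of those tested (quasi-likelihood test in edgeR, p adjusted by Benjamini and Hochberg under 0.05). Of these, 2480 (15.2% of those tested) were higher in Hg and 1833 (11.3%) were lower. The median log2 fold change was 0.83 for the genes higher in Hg, with quartiles of 0.55 and 1.28, and -0.70 for the genes lower in Hg, with quartiles of -0.97 and -0.49. At least 2-fold differences were found for 947 genes higher in Hg (5.82% of those tested) and 427 lower (2.62%), and at least 4-fold differences for 206 (1.27%) and 52 (0.319%). At least 8-fold differences were found for 48 genes higher in Hg (0.295%) and 15 lower (0.0922%).

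The libraries themselves showed the same separation without a model. For 6788 genes, 41.7% of those tested, the Hg and Zn libraries did not overlap, with all Hg libraries above all Zn libraries in 3453 (21.2%) and below them in 3335 (20.5%). Among the called genes, 98.1% of those higher in Hg and 96.3% of those lower in Hg had libraries that did not overlap. The genes were called on these same libraries, so high shares among them follow from the call and carry no test. The split between higher and lower genes depended on the scaling of the libraries. The median log2 fold change of all tested genes was -0.05 with TMM scaling (a trimmed mean of ratios) and -0.17 with upper-quartile scaling, a shift of -0.12. With it 1999 genes were called higher in Hg and 3027 lower, 39.8% against 60.2% of calls, where TMM gave 57.5% and 42.5%. Upper-quartile scaling left 776 genes at least 2-fold higher in Hg and 662 at least 2-fold lower. DESeq2 size factors gave 2544 and 1722.

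**Figure D1:**
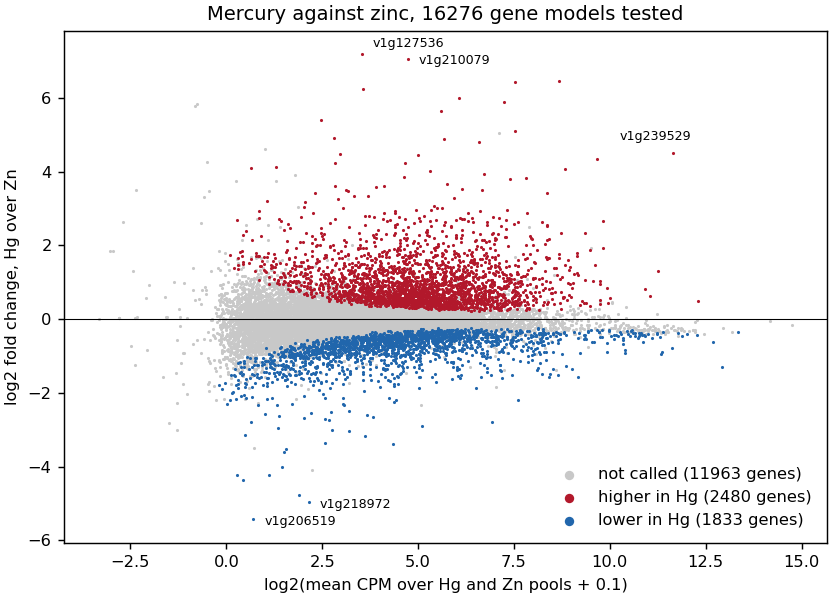
Log2 fold change of Hg over Zn for each tested gene model (vertical axis) against log2 of its mean CPM over the Hg and Zn pools plus 0.1 (horizontal axis). The 2480 genes called higher in Hg reach larger fold changes than the 1833 called lower, up to 7.18 and down to -5.43 on the log2 scale.

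The called genes with the largest increases were v1g127536 and v1g210079, both nearly silent in zinc. v1g210079 had 46.4, 51.1 and 59.7 CPM in the Hg pools, against 0.162, 0.639 and 0.272 CPM in the Zn pools. Every Hg pool thus lay far above every Zn pool, and the group means were 52.4 ± 6.8 CPM in Hg and 0.358 ± 0.25 CPM in Zn (SD, n = 3 each). Its log2 fold change was 7.06 ± 0.38 (SE; adjusted p = 5.63e-10, edgeR). v1g127536 had 22.3, 20.8 and 25.8 CPM in the Hg pools, against 0, 0.384 and 0 CPM in the Zn pools. Only Zn 2 held counts of it among the Zn pools. The Hg pools held 473 counts and the Zn pools 3, which is 165 times as many per scaled read in Hg (95% counting interval 56 to 801; adjusted p = 2.48e-07, edgeR). Without Zn 2 the Zn pools have 0 counts of it, and its fitted value, 7.18 with all pools, is then no measure of size.

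In these genes copper took a place between mercury and the other groups. v1g210079 averaged 7.2 ± 2.3 CPM in Cu pools and 0.2 ± 0.22 CPM in Cd pools (SD, n = 3 each), against 0.211 ± 0.16 CPM in controls (SD, n = 4). v1g127536 averaged 3.6 ± 2.2 CPM in Cu and 0.214 ± 0.26 CPM in Cd (SD, n = 3 each), against 0.0764 ± 0.088 CPM in controls (SD, n = 4). Cd, Zn and control were thus all under 1 CPM in both genes, and their order is within the spread of their pools.

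The called genes with the largest decreases, v1g206519 and v1g218972, reached at most 16.9 CPM in any pool. v1g206519 had 0.176, 0 and 0 CPM in the Hg pools, against 6.66, 1.53 and 0.815 CPM in the Zn pools. The Hg pools held 1 count of it and the Zn pools 59. After scaling, the ratio of Hg to Zn was 0.0177 (95% counting interval 0.00044 to 0.102; adjusted p = 0.00169, edgeR). Zn 1 held most of the Zn counts, and without Zn 1 the fitted log2 fold change was -4.14, against -5.43 with all pools and -7.30 without Hg 1, which leaves no Hg count. v1g218972 had 0.527, 0.144 and 0.128 CPM in the Hg pools, against 16.9, 5.12 and 3.26 CPM in the Zn pools. Its log2 fold change was -4.97 ± 0.93 (SE; adjusted p = 0.00114, edgeR), and it was -3.99 without Zn 1 and -5.76 without Hg 1. Both genes stayed called without any 1 library.

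The decreased pair also had low Cu levels. v1g206519 averaged 0.267 ± 0.088 CPM in Cu and 1.99 ± 1.1 CPM in Cd (SD, n = 3 each), against 2.42 ± 1.3 CPM in controls (SD, n = 4). v1g218972 averaged 0.59 ± 0.26 CPM in Cu and 6.61 ± 4.7 CPM in Cd (SD, n = 3 each), against 5.13 ± 1.7 CPM in controls (SD, n = 4). The Cu pools lay below all controls in both genes, but neither was called in Cu against control (edgeR, adjusted p = 0.0564 for v1g206519 and 0.0513 for v1g218972). In both, Zn, Cd and control overlapped. The Cu and Hg pools overlapped too. v1g206519 had 0.170 CPM in Cu 1 and 0.176 in Hg 1, and v1g218972 had 0.341 CPM in Cu 2 and 0.527 in Hg 1.

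A pair of further genes was singled out after their values were seen. v1g239529 was the most abundant of the 48 genes at least 8-fold higher in Hg. It had 5186, 6310 and 7090 CPM in the Hg pools, against 282, 263 and 274 CPM in the Zn pools, which is 4.50 ± 0.14 on the log2 scale (SE; adjusted p = 8.32e-13, edgeR). The groups were far apart, and this gene alone held 44.8% of the summed CPM of the 48 genes in Hg and 40.4% in Zn. In Cu it averaged 3339 ± 456 CPM and in Cd 284 ± 15 CPM (SD, n = 3 each), against 280 ± 13 CPM in controls (SD, n = 4). Zn, Cd and control overlapped.

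v1g234533 showed how far Hg pools could differ in a gene that separated the metals. It had 1352, 760 and 333 CPM in Hg 1, Hg 2 and Hg 3, against 9.26, 9.97 and 8.28 CPM in the Zn pools. The lowest Hg pool was still far above every Zn pool (6.47 ± 0.54 on the log2 scale, SE; adjusted p = 1.95e-06, edgeR). Its Cu pools had 40.2, 85.5 and 63.9 CPM, its Cd pools 5.46, 5.35 and 5.67 CPM, and its controls at most 11.3 CPM.

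**Figure D2:**
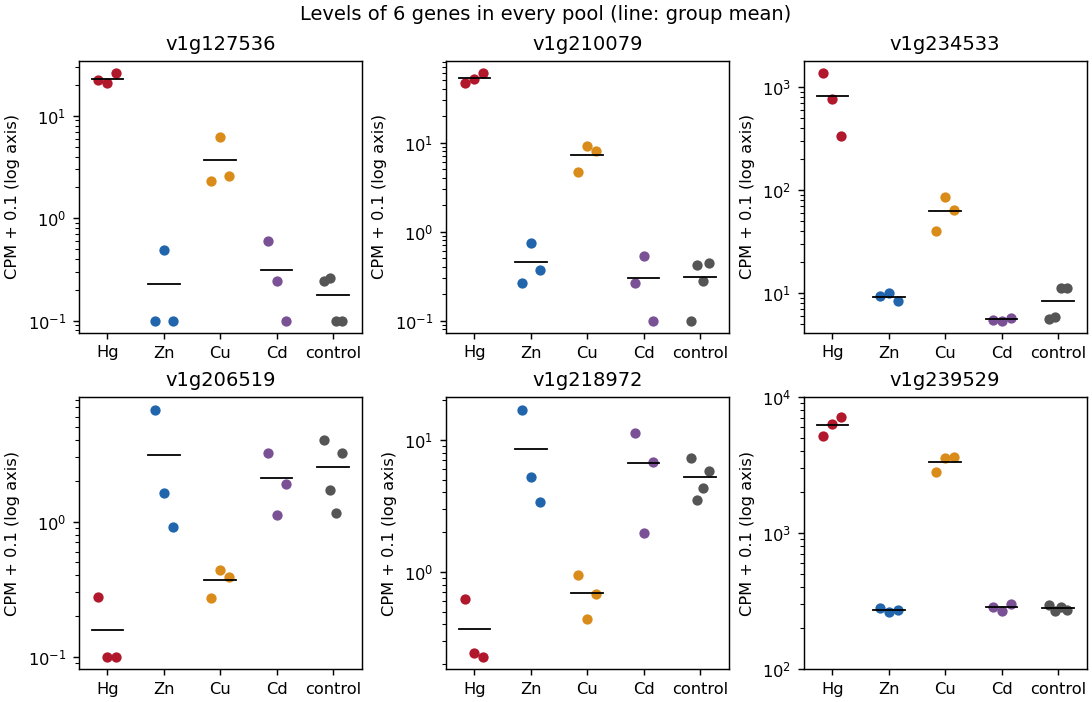
CPM plus 0.1 on a log axis for 6 genes in every pool of the 5 groups, with a line at the group mean. Hg stands apart from Zn in each gene, and the group mean of Cu lies between theirs. In v1g239529 the means are 6196 CPM in Hg, 273 in Zn and 3339 in Cu. Cd and control lie near Zn. In v1g206519 and v1g218972 the Cu pools overlap the Hg pools.

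The genes with at least 8-fold differences can be read as groups. The 48 genes higher in Hg ranged from 2.77 to 6196 CPM in group mean in Hg pools, with a median of 56.6 CPM, and from 0.128 to 273 CPM in Zn pools, with a median of 2.56 CPM. Their summed level was between 13610 and 14070 CPM in the Hg pools, against 659 to 688 CPM in the Zn pools. In the Cu pools the same sum was 4386 to 5971 CPM, in the Cd pools 715 to 866 CPM and in the controls 789 to 872 CPM. Without v1g239529 the remaining 47 genes summed to 7645 CPM in Hg and 402 CPM in Zn, with 2016 CPM in Cu, 482 in Cd and 540 in control. The 15 genes lower in Hg were all rare, with group means of 0.0585 to 3.49 CPM in Hg and 2.14 to 37.2 CPM in Zn. They summed to 9.48 to 17.3 CPM in the Hg pools, against 115 to 188 CPM in the Zn pools. Their sum was 34.8 to 55.3 CPM in the Cu pools, 96.7 to 139 CPM in the Cd pools and 102 to 137 CPM in the controls.

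Calls depended on how abundant a gene was. With the tested genes split into 3 classes of equal size by mean CPM, 11.5% of the least abundant were called, with more of them lower in Hg (356) than higher (266). In the middle class 26.5% were called, 836 higher and 600 lower, and in the most abundant class 41.6%, 1378 higher and 877 lower. The median size of a called log2 fold change was 1.20 in the least abundant class and 0.64 in the most abundant. The median SE over all genes of these classes was 0.36 and 0.12, so a difference had to be larger to be called in the least abundant class. Of the 1407 genes with at least 100 CPM, 341 were higher in Hg and 300 lower, together 45.6%.

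The called genes made up a large share of the messenger RNA counted. The 2480 genes higher in Hg held 24.3%, 23.4% and 22.7% of all counts in the Hg pools, against 11.6%, 11.3% and 11.5% in the Zn pools. The means were 23.5% ± 0.82 in Hg and 11.5% ± 0.15 in Zn (SD, n = 3 each). The 1833 genes lower in Hg held 16.1%, 17.1% and 16.9% in the Hg pools, against 23.8%, 25.2% and 24.2% in the Zn pools. These genes were chosen on the same libraries, so the shares are a description and carry no test. The gain was spread over many genes, and 166 genes made up 50% of the CPM gained in Hg. The loss was more concentrated, with 48 genes making up 50% of it and the 10 with the largest loss 26.2%, where the 10 with the largest gain made up 14.7%. The 10 most abundant gene models of the study held 9.21% ± 0.83 of counts in Hg and 11.3% ± 0.54 in Zn (SD, n = 3 each; two-sided exact permutation test p = 0.1, the smallest possible). Whole animals were sequenced, so fewer cells of a type and less RNA per cell cannot be told apart.

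**Figure D3:**
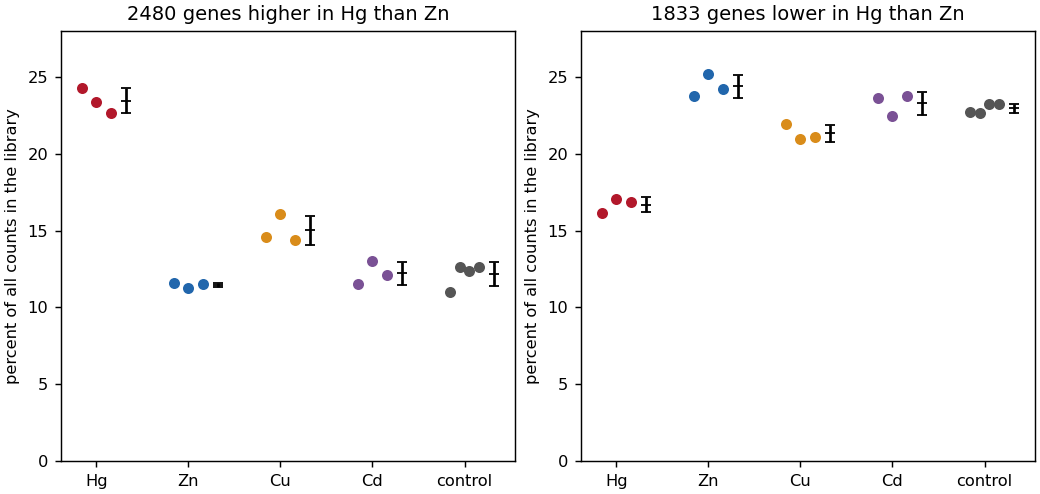
Percent of all counts of each library held by the genes called higher (left) or lower (right) in Hg than in Zn, by group, with the mean and SD beside the points. Cu pools hold 14.4% to 16.1% of their counts in the genes higher in Hg, between Hg and the other groups, while Zn, Cd and control pools hold at most 13.0%.

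The same genes were next read in copper and cadmium against control, comparisons that share no library with Hg against Zn. The comparisons came from one fit, with common scaling and a common estimate of each gene's spread, so their calls are not independent. Many of the genes higher in Hg than in Zn were also higher in Cu than in control. Of the 2480 genes, 438 (17.7%) were called higher in Cu than in control and 0 lower. Of all tested genes 3% were called higher in Cu and 1.2% lower (edgeR). At an unadjusted p under 0.05, 35 (1.41%) of the 2480 genes were lower in Cu, and 2 were called lower by DESeq2. These 2 counts were not made over all tested genes. The median log2 fold change of the 2480 genes in Cu was 0.20, with 80.3% above 0, against -0.02 and 46.6% over all tested genes. Of the 1833 genes lower in Hg, 87 (4.75%) were called lower in Cu, where 1.2% of all tested genes were, and 8 were called higher. Their median in Cu was -0.13, with 73.2% below 0. The 8 genes that went opposite ways had log2 fold changes of -1.16 to -0.31 in Hg over Zn and of 0.38 to 0.87 in Cu over control. The count of 438 was 278 without Cu 2, 295 without Cu 3, 324 without Cu 1 and 323 without control 4. The count of 87 was not stable when 1 library was left out. It was 47 without Cu 1, 25 without Cu 2 and 29 without Cu 3, so it fell whichever Cu pool was dropped. It was also lower without control 3 (37), control 4 (45), Hg 2 (55) or Zn 2 (55). Without control 1 it rose to 113 and without control 2 to 117. The cause was not tested.

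The median change in copper grew with the size of the difference between Hg and Zn. Among genes under 1.5-fold higher in Hg than in Zn, the median log2 fold change of Cu over control was 0.10 and 4.43% of 699 genes were called higher in Cu. For differences of 1.5-fold to 2-fold the values were 0.18 and 10.9% of 834 genes, and for 2-fold to 4-fold 0.36 and 26.9% of 741. For 4-fold to 8-fold they were 0.86 and 55.7% of 158 genes, and for at least 8-fold 1.76 and 60.4% of 48. In the last class the median difference between Hg and Zn was 3.90, so the change in Cu was smaller on the log2 scale. All 3 Cu pools lay above all 4 controls for 38 of these 48 genes, 79.2%, against 8.02% of all tested genes. Among the genes lower in Hg the median in Cu was -0.08, -0.15, -0.20, -0.46 and -1.58 over the same classes. The last class held 15 genes, of which 7 were called lower in Cu, and 11 (73.3%) had all Cu pools below all controls, against 6.86% of all tested genes.

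Seen from the copper side, 438 of the 488 genes called higher in Cu than in control (89.8%) were higher in Hg than in Zn, where 15.2% of all tested genes were. Of the 195 genes called lower in Cu, 87 (44.6%) were lower in Hg than in Zn, where 11.3% of all tested genes were. Of the same 195, 0 were higher in Hg by edgeR and 0 by DESeq2. At an unadjusted p under 0.05, 3 (1.54%) were higher in Hg, where 3178 of all 16276 tested genes were (edgeR). Across all 16276 genes the log2 fold changes of Hg over Zn and of Cu over control had a Pearson coefficient of 0.38 and a Spearman coefficient of 0.35. This is a description across genes, which are not independent replicates.

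Few of the genes were called in cadmium. Of the genes higher in Hg than in Zn, 2 were called higher in Cd than in control, where 3 of all tested genes (0.0184%) were, and the median log2 fold change in Cd was -0.02 with 45.6% above 0. Of the genes lower in Hg, 0 were called lower in Cd by edgeR and 0 by DESeq2, and 48 (2.62%) were lower at an unadjusted p under 0.05. Over all tested genes 0% were called lower in Cd by edgeR and 3 by DESeq2, and 551 (3.39%) were lower at an unadjusted p under 0.05. The median in Cd of the genes lower in Hg was 0.02. With 6 libraries left out that stood high in a set of 198 genes that vary together between pools (Hg 3, Zn 3, Cu 3, Cd 1, control 1 and control 2), 5 of 2126 genes higher in Hg (0.235%) were called higher in Cd and 20 of 1360 genes lower in Hg (1.47%) were called lower in Cd. Of the 16074 genes tested in that setting, 23 (0.143%) were called higher in Cd and 147 (0.915%) lower. In the 48 genes at least 8-fold higher in Hg the median in Cd was -0.10, against 1.76 in Cu. Across all tested genes the fold changes of Hg over Zn and of Cd over control had a Pearson coefficient of -0.04.

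**Figure D4:**
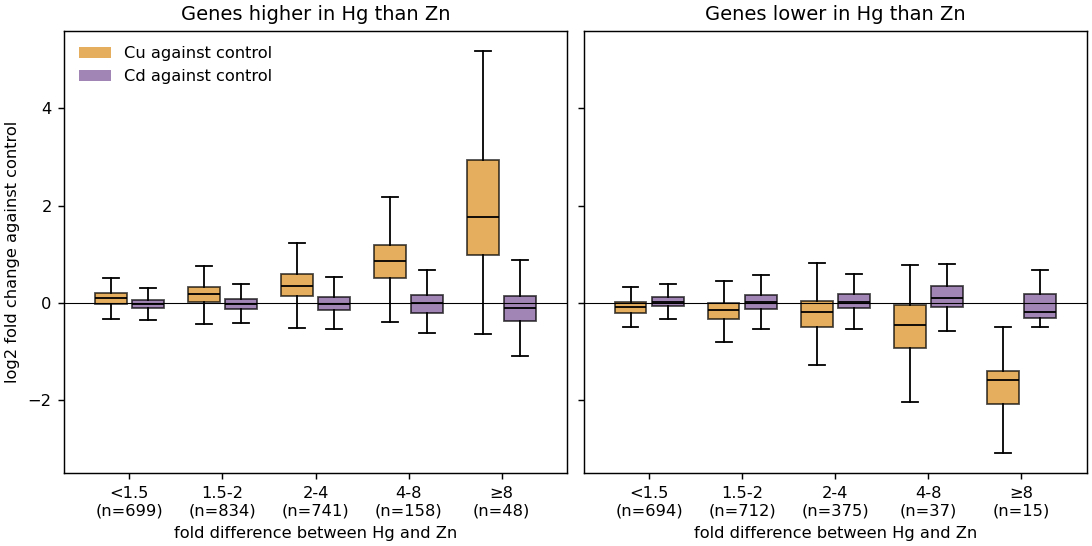
Log2 fold change of Cu (orange) and Cd (purple) against control for genes called higher (left) or lower (right) in Hg than in Zn, by size of the Hg and Zn difference. Boxes show quartiles with the median as a line, and whiskers reach up to 1.5 box lengths. Cu medians rise from 0.10 to 1.76 across the classes on the left and fall to -1.58 on the right, while Cd boxes stay around 0.

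The 2 genes higher in Hg that were also called higher in Cd were v1g28119 and v1g167250, named for their small number after their values were seen. v1g28119 had 222, 159 and 177 CPM in the Hg pools, against 49.9, 47.1 and 49 CPM in the Zn pools (a difference of 1.94 ± 0.12 on the log2 scale, SE; adjusted p = 1.99e-09, edgeR). It had 57.6, 59.3 and 48.2 CPM in the Cd pools, against 27.3 to 32.5 CPM in the 4 controls. The Zn pools thus also lay above every control, although Zn was not called against control (0.71 ± 0.12 on the log2 scale, SE; adjusted p = 0.0815, edgeR). v1g167250 had 783, 665 and 662 CPM in the Hg pools, against 142, 132 and 146 CPM in the Zn pools (a difference of 2.33 ± 0.10 on the log2 scale, SE; adjusted p = 4.15e-11, edgeR). Its Cd pools had 161 to 183 CPM and its controls 102 to 123 CPM. Here too all Zn pools lay above all controls, with a log2 fold change of Zn over control of 0.35 ± 0.09 (SE; adjusted p = 0.511, edgeR). The call of both genes in Cd depended on single libraries, and 0 were called without Cd 1, without Cd 2 or without control 3. The count of genes called higher in both comparisons was 1 without Cu 3, Cd 3 or control 1, and 4 without Hg 1 or Hg 2.

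A gene called higher in every metal than in control was not called between mercury and zinc. v1g39805, also named after its values were seen, was the 1 gene called higher in Zn than in control, 0.00614% of those tested, with 0 called lower (edgeR), 1 called lower by DESeq2 and 630 lower at an unadjusted p under 0.05. It had 66.4, 31 and 39.9 CPM in the Hg pools, against 34.3, 45.1 and 37.8 CPM in the Zn pools. The groups overlapped, and the log2 fold change of Hg over Zn was 0.22 ± 0.21 (SE; adjusted p = 0.482, edgeR). Hg 1 was the highest pool, and without it the value was -0.15. The 4 controls had 11.1 to 14.6 CPM, and its log2 fold changes over control were 1.77 in Hg and 1.55 ± 0.21 (SE) in Zn (edgeR, adjusted p = 0.0261 for Zn).

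Where the other groups stood between Hg and Zn was read from group means of log2 CPM. For the genes higher in Hg, Cu was nearer to Zn than to Hg in 73.8%, Cd in 95.3% and control in 94.7%. Over all tested genes the shares were 59.8% for Cu, 73.8% for Cd and 72.5% for control. Control was above Hg in 6 of the 2480 genes (0.242%) and below Zn in 813 (32.8%). Over all tested genes control lay outside the range between the metals on the Hg side in 15.2% and on the Zn side in 37.7%. For the genes lower in Hg, Cu was nearer to Zn in 67.6%, Cd in 93.4% and control in 88.7%. The genes lower in Hg stood a median of 0.55 log2 units below control in Hg, and control stood 0.12 below Zn. For genes higher in Hg the values were 0.73 above control in Hg, with control 0.07 above Zn. Choosing genes by the difference between Hg and Zn pushes these groups to the outside, so these positions carry no test. Of all groups Hg had the highest mean in 97.6% of the genes higher in Hg, and Cu came second to it in 70.8%. Over all tested genes Hg had the highest mean in 31.9%, with Cu second to it in 15.8%. Hg had the lowest mean in 97.1% of the genes lower in Hg, and Cu the next lowest in 60.6%, against 36.6% and 16.3% over all tested genes. The first place of Hg largely follows from the choice of genes. Where Hg was highest, Cu was second in 1757 of 2421 genes called higher and in 2576 of 5185 tested genes. Where Hg was lowest, Cu was next in 1111 of 1779 genes called lower and in 2651 of 5956 tested genes. Among the genes with at least 8-fold differences Cu came second in 93.8% of the 48 higher and in 80% of the 15 lower.

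Pools of one metal also differed among themselves. The biological coefficient of variation was 17.4% between Hg pools and 14.4% between Zn pools. Among the 4313 called genes, 206 spanned more than 2-fold between Hg pools and 122 between Zn pools. Of the 95 such genes that were higher in Hg, Hg 1 was the highest Hg pool in 60, Hg 2 in 13 and Hg 3 in 22. Of the 111 that were lower in Hg, Hg 1 was the lowest Hg pool in 61, Hg 2 in 31 and Hg 3 in 19. The libraries of Hg and Zn did not overlap in 82 of the 95 and in 102 of the 111. The share was 98.1% of all genes called higher, 96.3% of all called lower and 41.7% of all tested genes. The genes were called on the same libraries, so these counts carry no test. Genes that were not called were not counted here in this way, so the pattern of Hg 1 may not be particular to the called genes. Hg 1 was the shallowest of the 6 libraries, and the part of depth in this pattern was not tested.

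Hg 3 and Zn 3 stood apart from the other pools of their groups in the same direction. In the 6 libraries the first principal component of log2 CPM held 53.7% of the variance and separated Hg from Zn, and the second held 18.9% and separated Hg 3 and Zn 3 from the rest. A set of 198 genes that vary together between pools of one group summed to 349, 308 and 1708 CPM in Hg 1, Hg 2 and Hg 3, against 528, 377 and 1926 CPM in Zn 1, Zn 2 and Zn 3. None (0) of these 198 genes was called between Hg and Zn in either direction by edgeR, nor by DESeq2, and 0 passed an unadjusted p under 0.05. They were chosen for varying within groups, so nothing is read from this count. With Hg 3 and Zn 3 left out together, 1986 genes were called higher in Hg and 1199 lower. Of the genes called with all pools, 1933 and 1094 were among them. The labels give no day, batch or sex for the pools.

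**Figure D5:**
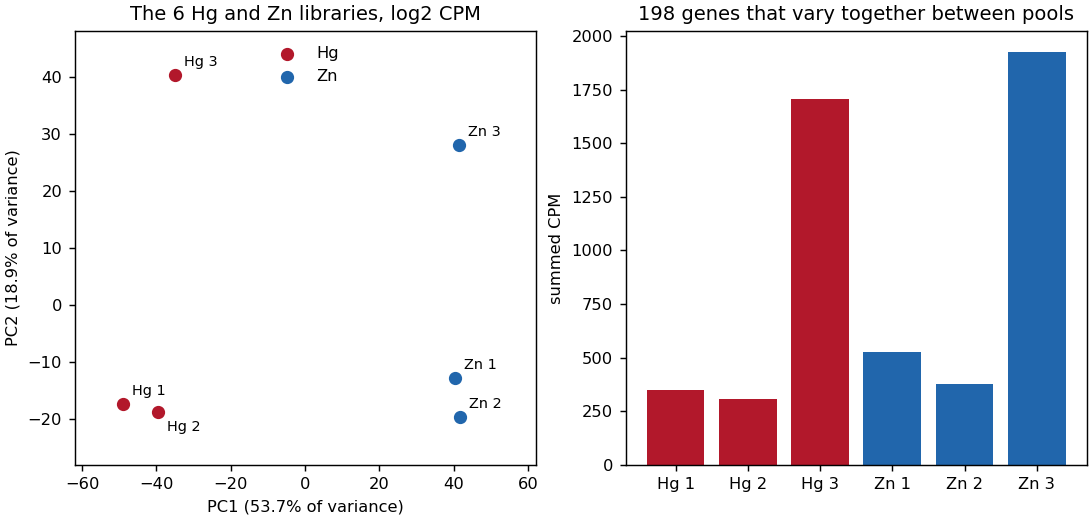
Left, the 6 Hg and Zn libraries on the first and second principal components of log2 CPM. Right, summed CPM of 198 genes that vary together between pools of one group, with 1708 CPM in Hg 3 and 1926 CPM in Zn 3, against 308 to 528 CPM in the other 4 pools.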

How the data were processed

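RNA of whole anemones was sequenced after Tri-reagent extraction and TruSeq mRNA libraries, per the labels' protocols. STAR, Partek and DESeq are listed, without versions, in the submitters' processing notes. The sources used here give no genome build and no strand setting. The authors deposited raw counts per gene model in a table per metal. The deposited tables also hold base means (a normalized signal), fold ratios and p-values against control, and in the Cd table an adjusted p-value that reaches 3977 and was treated as a score. These authors' values were not used.

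The analysis used edgeR 4.0.16 under R 4.3.3. Genes passed the default filterByExpr rule, libraries were scaled by TMM, and all 16 libraries entered one robust quasi-likelihood fit with a term per group and no replicate block. Hg was tested against Zn, and Hg, Cu, Cd and Zn against control, with Benjamini-Hochberg adjustment over 16276 genes and a threshold of 0.05. An SE is the log2 fold change divided by the square root of F. Counting intervals are exact and cover counting error only. Log2 CPM used a prior count of 2.

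Named genes are the 2 called genes with the largest fitted change each way with libraries that did not overlap and a mean of 1 CPM or more where higher, and others are marked where they were chosen after their values were seen. The 198 genes correlate above 0.8 with the gene loading most on the first component of deviations from group means, with an SD above 0.5. The comparison, the rule and the gene sets were chosen with earlier results of these data known. Gene lists planned by product name could not be read for lack of names.

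The tests were checked on simulated counts. Alternatives were DESeq2 1.42.0, limma 3.58.1 voom, other scalings and filters, thinned counts, a replicate block, a minimum change of 1.5-fold, fits of the 6 libraries alone and fits without single libraries.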

Additional observations from a re-analysis of the deposited data

Results flagged for a closer look

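Of the 19 control values examined, 1 had a library well away from the remaining 3, where chance gives about 1 in 20. At equal depth control 1 had counts in 19930 gene models, below the 20106 to 20137 of the other controls. Values of the Hg and Zn groups, with 3 pools each, were not examined in this way.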

How the results depend on the processing

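Every alternative kept genes called in both directions between Hg and Zn. Upper-quartile scaling gave 3027 genes lower in Hg, 662 of them at least 2-fold. Testing against a change of 1.5-fold instead of 0 left 1176 genes, 927 higher in Hg and 249 lower, and of those lower 227 differed at least 2-fold. Requiring 50 counts in 3 libraries, which tests fewer genes, left 252 genes at least 2-fold lower. The cause of this fall was not tested. Without Hg 3 and Zn 3 there were 1199 genes lower in Hg, with fewer samples. Leaving out any 1 library gave 2045 to 2577 genes higher and 1262 to 1863 lower in Hg, 3368 to 4431 in all, and 864 to 984 and 378 to 474 at least 2-fold higher and lower. Pool numbers gave no pairing by design. Pools of Hg and Zn with the same number had deviations correlated at 0.07, 0.19 and 0.39, and Hg 1 correlated more with Zn 2 than with Zn 1. With the replicate block 4177 genes were called in all libraries, 2413 higher and 1764 lower in Hg. In the 6 libraries alone 2403 and 1648 were called without the block, and 2455 and 1771 with it.

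Counts in the other metals were less stable. Genes higher in Hg and called higher in Cu numbered 278 to 438 without single libraries. Genes lower in Hg and called lower in Cu numbered 25 to 117 without single libraries, 50 without a filter and 48 with the replicate block, and the cause was not tested. Genes higher in Hg and called higher in Cd numbered 0 to 4 without single libraries and 6 by DESeq2, while genes lower in both numbered 0 in each. With all libraries edgeR called 0% of all tested genes lower in Cd, so little can be read from that 0. Calls in Cu and calls higher in Cd were not counted over all tested genes in these settings. These counts therefore have no such share beside them. In the 10 libraries with low levels of the 198 genes, a setting chosen after seeing the data, 5 genes higher in Hg were called higher in Cd and 20 lower in Hg were called lower in Cd. The cause was not tested.

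The share of genes whose Hg and Zn libraries did not overlap was 40.7% with plain library totals and 31.1% with all genes that had a count. Without the 10 most abundant gene models the genes higher in Hg held 25.8% of counts in Hg and 12.9% in Zn, and the genes lower in Hg 15.8% and 23.5%. The log2 fold change of v1g39805 was -0.15 to 0.42 without single libraries, -0.15 being the value without Hg 1. The other 8 genes named kept their direction and call in every alternative in which they were tested. v1g206519 was not tested in the 6 libraries alone or under the stricter filter. At 1 CPM a gene had 5 to 8 counts in a library, and calls by abundance were not recomputed at other depths.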
